A study of Mus musculus with 2 samples.

Results

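Eukaryotic translation initiation factors (eIFs) and elongation factors (eEFs) were compared in pancreas RNA of mice whose mothers had eaten a control or a methionine-deficient diet. The members were all probe sets whose single annotated gene symbol starts with Eif or Eef and a digit, without the eIF2 kinases (Eif2ak), and were 54 of 18193 named genes, read by 142 of 45101 probe sets. A probe set is a group of short probes that together read 1 transcript. The animals were male C57BL/6J offspring aged 10 weeks. Both groups ate control diet from weaning at 3 weeks, were given no treatment of their own, and differed only in the diet of their mothers in pregnancy. RNA of each group was pooled and hybridised to 1 array. How many mice or litters a pool held is not given in the sources used here. With 1 array per group there was no replicate and no test, so each value below is a single measurement, and no difference can be set against the spread between animals.

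Translation starts when eIF2 brings the methionyl initiator tRNA to the small ribosomal subunit, eIF3 and eIF1A hold the subunit ready, and the eIF4F complex binds the mRNA cap. The eIF2B complex then recharges eIF2 with GTP, a step that is blocked when amino acid shortage leads to phosphorylation of eIF2. The eEF1 complex delivers aminoacyl-tRNAs to the moving ribosome and eEF2 drives its translocation. Acinar cells of the pancreas have a very high rate of protein synthesis because they secrete digestive enzymes.

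The translation factor transcripts had close intensities in both pools in the brightest probe set of each gene. Of the 54 genes, 51 had a mean level past the filter used throughout, which was the median of all probe sets (intensity 150.3). Among these 51 genes 23 were higher and 28 lower in the methionine-deficient pool, and their median log2 difference (methionine-deficient minus control) was -0.0034. With each array's median subtracted, a scaling that moves all differences down by 0.05, the split was 15 higher to 36 lower and the median was -0.06. Over all 11848 genes past the filter 5924 were higher and 5924 lower, and 5184 and 6664 with the medians subtracted (median -0.05). No factor gene was at least 1.5-fold higher, beside 10.4% of all genes past the filter, and 1 was at least 1.5-fold lower, beside 9.00% of all genes. None was 2-fold higher or 2-fold lower, where 3.87% and 2.80% of all genes were. These counts use the brightest probe set of each gene.

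The factor genes were bright, and bright genes differed less on these arrays. In the brightest of 5 level bins, which held 36 of the 51 factor genes, 100% of the factor genes and 97.6% of all 2791 genes differed by less than 1.5-fold. In that bin the median absolute log2 difference was 0.084 for the factor genes and 0.13 for all genes. The share over all levels is therefore not the share at the level of these genes. No error between animals exists here, so each log2 difference is set beside a probe-set spread, the robust SD between a gene's own probe sets at like level, which was 0.79, 0.59, 0.42, 0.29 and 0.18 from the dimmest bin to the brightest. It covers only probe noise within these arrays.

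**Figure D1:**
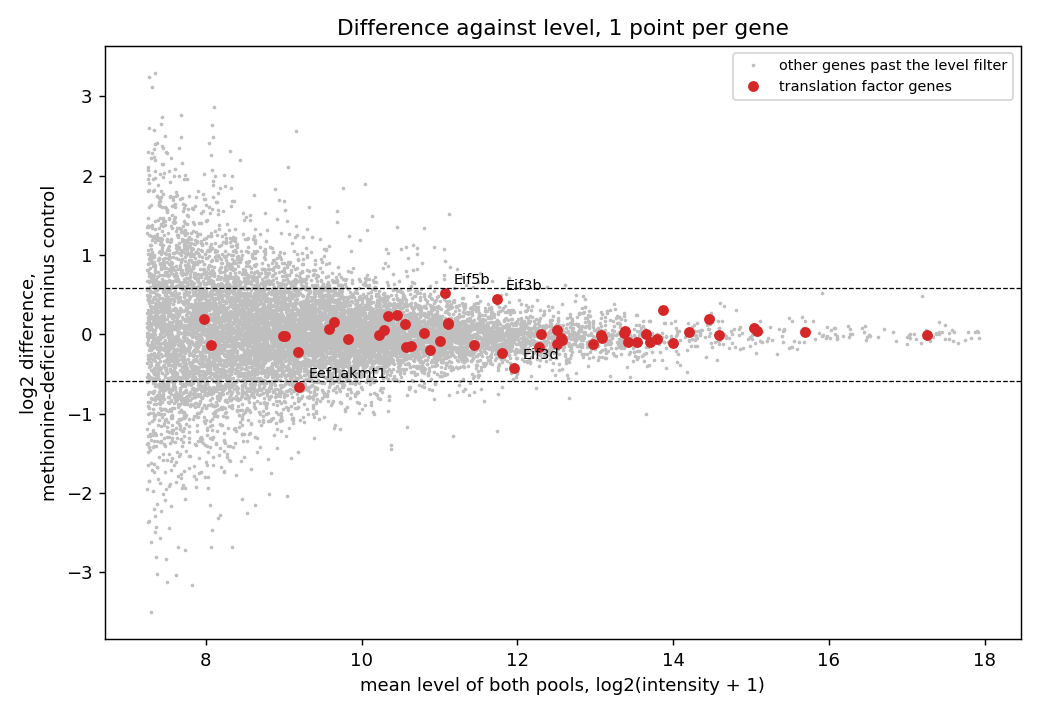
Difference between the pools on the log2 scale (vertical) against the mean level of both pools (horizontal), with 1 point per gene past the level filter. Red points are the 51 translation factor genes, grey points the other genes, and dashed lines mark 1.5-fold. All factor genes but Eef1akmt1 lie between the lines.

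The tissue and its other cells were checked by marker genes. Summed intensities of 5 acinar markers were 755259 in the control pool and 746106 after the methionine-deficient diet, and those of 5 islet markers were 171654 and 179538. The 5 B and plasma cell markers summed to 10407 and 5415, the largest relative shift among the marker lists. Most of that sum was Ighm (5210 and 2243) and Jchain (4087 and 2281). Of the 5 markers 4 were lower, and Cd79b was higher (288.1 and 332.0). The 3 adipocyte markers summed to 15357 and 12988. The 4 duct markers summed to 1479 and 1812, the 4 macrophage markers to 5799 and 5524, and the 3 endothelial markers to 851.7 and 1260. Under the level filter but in these sums were the duct marker Cftr (128.7 and 46.2) and the endothelial marker Kdr (61.4 and 261.2). Of the liver markers, Alb was at 279.2 and 192.5, Ttr, also made by islet cells, at 13714 and 11572, and Apoa1 under the level filter. Of the erythroid markers, Alas2 was at 511.2 and 677.4 and Hba-a1 under the filter at 16.9 and 13.3. RNA quality can be read from array controls at both ends of a transcript, and the 3' to 5' ratio was 1.46 and 1.76 for Actb and 0.973 and 1.11 for Gapdh. The part of these shifts in the values below was not tested. In whole tissue, fewer cells of a type and less RNA per cell cannot be told apart.

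The start regions of the genes show features that the choice of members did not use. RefSeq start sites (GRCm38.p6) were found for 43 of the 54 genes. Many mRNAs of the translation apparatus begin with a C followed by a run of pyrimidines, an element through which mTORC1 controls their use. A run of C and T letters that starts with C and spans at least 8 bases lay within 10 bases before to 20 after the start in 9 of the 40 factor genes past the level filter that had a start (22.5%) and in 11.5% of all 9522 such genes. Shown are both genes of the eIF2 gamma subunit, on the X and the Y chromosome, the eIF3 gene with a run of 15 bases, and both genes of eEF1A, with runs of at least 8 bases in capitals.
Eif2s3x, chrX:94212632-94212661, minus strand: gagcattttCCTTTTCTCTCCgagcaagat
Eif2s3y, chrY:1010585-1010614, plus strand: ggccacagccaCTTCCTTCTTTCgtgagca
Eif3f, chr7:108934405-108934434, plus strand: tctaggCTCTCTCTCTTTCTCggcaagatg
Eef1a1, chr9:78481705-78481734, minus strand: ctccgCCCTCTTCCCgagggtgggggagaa
Eef1a2, chr2:181156996-181157025, minus strand: cctggtctgcgttctcgctcactggttctc
In this window the 2 eIF2 gamma genes each hold a run of 12 bases, while Eef1a1 has a run of 10 bases and Eef1a2 has none longer than 3. The search took the longest run anywhere in the window around an annotated start. A marked run therefore need not lie at the first base of the mRNA, or in the mRNA at all, and is not shown to be the mTORC1 element.

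The letters TGATGNAA, a core of the element through which ATF4 acts in amino acid shortage, were searched on both strands of the 300 bases around each start. They were found in 2 of the 40 factor genes (5.0%), beside 3.00% of all genes past the filter. Both matches read on the opposite strand of the gene and are shown in capitals.
Eif2s3x, chrX:94212729-94212758, minus strand: ttcgccatcatTTTCATCAggtctatgccg
Eef2k, chr7:120851094-120851123, plus strand: ctttctgcttgTTTCATCAagctcagcttg
The match in Eif2s3x begins 96 bases before its start and the match in Eef2k, at 1 of its annotated starts, begins 84 bases before. The E-box CACGTG, bound by Myc and by clock factors, was found in 10 of the 40 factor genes past the filter (25%), beside 11.6% of all genes past it. In 2 more, Eef1aknmt and Eif5a2, the gene lies under the filter. A match is a description of the sequence and not a site of binding.

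The eIF2 complex carries the initiator tRNA, and its measured subunit genes differed little. Eif2s1, the gene of the alpha subunit, was not among the 54 genes, so that subunit was not read here. Eif2s2, the beta subunit, read 16991 in controls and 15725 in the methionine-deficient pool (log2 difference -0.11, probe-set spread 0.18). The 4 brightest of its 5 probe sets past the filter were lower, while the fifth was at 1756 and 3101 (log2 difference 0.82). The gamma subunit gene Eif2s3x was at 6044 and 5573, and all 3 of its probe sets were lower, between -0.19 and -0.09 on the log2 scale. Its Y-linked copy Eif2s3y, which males alone carry, was at 745.5 and 783.0 (log2 difference 0.07). Both pools thus had Y-linked signal past the filter, as the labels state for males. Both gamma subunit genes differed by less than their probe-set spread in the brightest probe set.

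Eif2a and Eif2d encode factors that can bring initiator tRNA to the ribosome without eIF2. Eif2a was at 1668 and 1501 in its brightest probe set (log2 difference -0.15), but at 817.8 and 1268 in its second (0.63). Eif2d was at 1436 and 1569 (log2 difference 0.13), and its 4 probe sets past the filter ran from -1.56 to 0.80. The lowest was at 425.9 and 143.5, and passed the filter on the mean of both pools through the control value alone. The other 3 were higher. In Eif2a the probe sets disagree in direction by more than the probe-set spread of their level. In Eif2d they do so only through that lowest probe set. The 5 genes of this group had a median of -0.11, with 2 higher and 3 lower.

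The eIF2B complex, the exchange factor that reloads eIF2 with GTP, was lower in 4 of its 5 subunit genes, by small amounts. Eif2b3, of the catalytic subcomplex, was at 625.2 and 537.0 (log2 difference -0.22, probe-set spread 0.42). Eif2b1, the regulatory alpha subunit, was at 1599 and 1433 (-0.16). Eif2b5, the catalytic epsilon subunit, was at 2120 and 2009 (-0.08). The exception was Eif2b4, the delta subunit, at 2100 and 2329 (0.15). Each of these 4 genes had a difference within its probe-set spread and rests on 1 probe set past the filter. Eif2b2, the beta subunit, was at 5252 and 4703 in its brightest probe set (-0.16), and at 2048 and 3079 in its second (0.59). The median of the 5 genes was -0.16, the lowest among the complexes, beside a median of -7.7e-06 over all genes past the filter. Over the other probe sets, which only Eif2b2 has, the value was 0.25, so the direction of the group rests on the brightest probe sets.

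Of the 6 genes of start-codon scanning and subunit joining, 4 were higher and 2 lower in their brightest probe set. With each array's median subtracted, 3 were higher and 3 lower. Of 16 probe sets past the filter, repeat reads of these genes, 11 were higher, beside 54 of 114 for all factor genes. Eif5b, the GTPase that joins the large subunit, was at 1796 in controls and 2568 in the methionine-deficient pool by its brightest probe set, 1.43-fold higher (log2 difference 0.52, probe-set spread 0.18). Its other 2 probe sets were at 1991 and 2186 (0.14) and at 323.7 and 485.1 (0.58). All 3 were higher, but the first 2, of nearly the same level, differ from each other by more than the spread.

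The eIF1A genes Eif1a and Eif1ax, whose product holds the scanning ribosome open, were higher in each probe set as deposited. So was Eif1ad, which was placed in this group by its name. Eif1a was at 1288 and 1530 (log2 difference 0.25) and at 1043 and 1197 (0.20) in its probe sets, the second of a kind that can bind several transcripts. The X-linked gene Eif1ax was at 5028 and 5069 in its brightest probe set (0.01, but -0.04 with each array's median subtracted), and its other probe sets gave 0.29 and 0.25. Eif1ad, a gene named for its eIF1A domain, was at 1221 and 1268 (0.05) and at 764.4 and 1193 (0.64). A role of Eif1ad in scanning was not shown here, and the counts and medians of the group include it. The near-identical eIF1A genes may share probe signal, which makes the value of each uncertain. The brightest probe sets of the 3 genes differed by less than the spread of their level.

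The other factors of this step were lower in their brightest probe sets. Eif5, which makes eIF2 hydrolyse its GTP at the start codon, was at 11275 and 10581 (log2 difference -0.09), with 4 of 5 probe sets lower. Eif1b, a start-codon fidelity factor, was at 2905 and 2657 (-0.13). The 6 genes of the group had a median of 0.03 (-0.02 with each array's median subtracted) from their brightest probe sets and of 0.27 from the other probe sets of 5 of them.

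**Figure D2:**
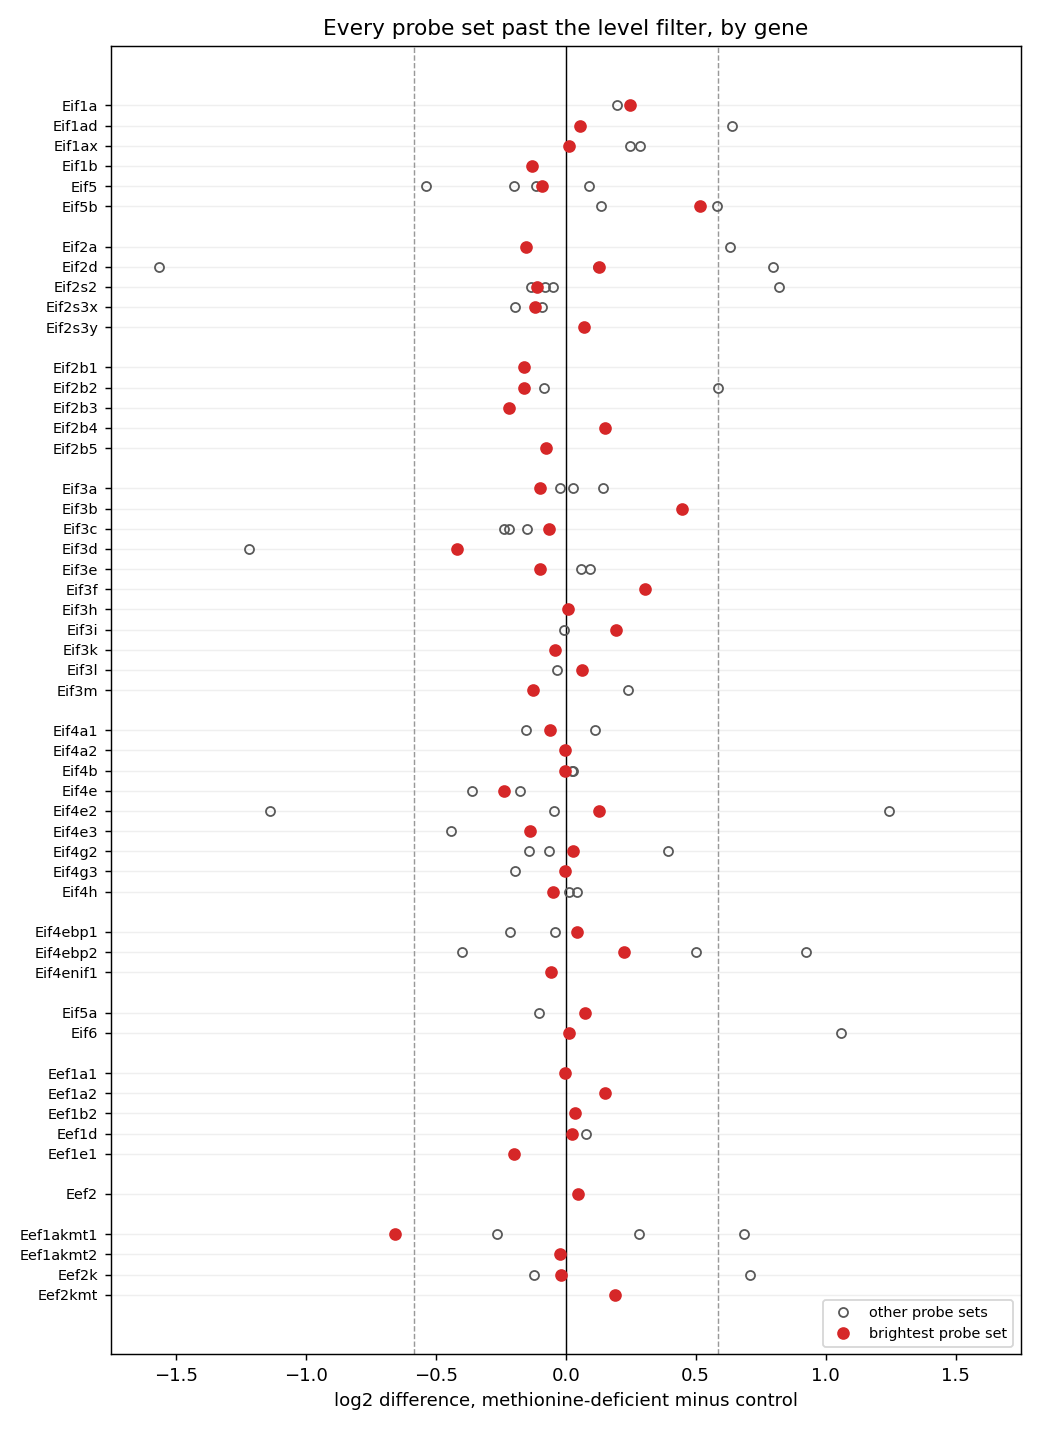
Log2 difference, methionine-deficient minus control, of each of the 114 probe sets past the level filter (horizontal), by gene and grouped by complex (vertical). Red points are the brightest probe set of a gene, open circles its others, and dashed lines mark 1.5-fold. The largest differences, such as -1.56 in Eif2d and 1.24 in Eif4e2, are of open circles. That Eif2d probe set is under the filter in the methionine-deficient pool (425.9 in controls and 143.5).

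The eIF3 complex, the largest initiation factor, had 5 of 11 measured genes higher and 6 lower, with a median of -0.04. Its core subunits did not differ in a common direction. Eif3b, a scaffold of the core, was at 2915 and 3979, 1.36-fold higher (log2 difference 0.45, probe-set spread 0.18), and rests on 1 probe set. Eif3d, a subunit that can bind the cap of certain mRNAs, was at 4577 and 3426, 1.34-fold lower (-0.42, probe-set spread 0.18). Its second probe set was at 436.9 and 187.1 (-1.22, probe-set spread 0.59), so both of its probe sets were lower. These were the largest differences of the complex in each direction, and each passed the spread of a single probe set.

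The core subunit Eif3a was at 12245 and 11439 (log2 difference -0.10), with 2 of its 4 probe sets higher and 2 lower. Its partner Eif3c was at 6229 and 5958 (-0.06), and all 4 of its probe sets were lower, down to -0.24. The WD-repeat subunit Eif3i was at 21024 and 24021 (0.19), but at 17920 and 17853 in its second probe set. The difference of Eif3i was thus near 0 in 1 of its 2 probe sets. Eif3f, one of the subunits with an MPN fold, was at 13450 and 16619 (0.31), from 1 probe set. Eif3h, the other MPN subunit, was at 12839 and 12909 (0.01). The brightest probe sets of Eif3e, Eif3k, Eif3l and Eif3m lay between -0.12 and 0.06. The second probe set of Eif3m gave 0.24, and 2 of the 3 probe sets of Eif3e past the filter were higher. Differences of opposite sign thus occurred among subunits that work in a single complex, at levels where the probe-set spread was 0.18.

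The cap-binding complex eIF4F and its helper proteins showed the tightest values of the initiation groups with more than 5 genes. The median of its 9 genes, which did not include the scaffold gene Eif4g1, was -0.0041. Of these 9 genes 2 were higher and 7 lower, and all lay between -0.24 and 0.13. The helicase genes Eif4a1 and Eif4a2 were at 14513 and 13930 (log2 difference -0.06) and at 24766 and 24736 (-0.0018). Their activators Eif4b and Eif4h were at 8629 and 8605 and at 6166 and 5956. The scaffold genes Eif4g2, whose protein lacks the site for eIF4E, and Eif4g3 were at 18663 and 19049 and at 1193 and 1190. None of these genes differed by more than the probe-set spread in its brightest probe set.

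The cap-binding protein itself was the farthest from 0 in that group. Eif4e was at 3881 in controls and 3290 in the methionine-deficient pool, 1.18-fold lower (log2 difference -0.24, probe-set spread 0.18). Each of its 3 probe sets past the filter was lower, at -0.24, -0.17 and -0.36, and 1 more under the filter was at 136.0 and 143.6. Eif4e3, a cap-binding relative, was at 278.8 and 253.5 (-0.14), with both probe sets lower. Eif4e2, which represses translation when bound to the cap, was at 2114 and 2310 (0.13). Dimmer probe sets of Eif4e2 went opposite ways, at 209.1 and 496.8 (1.24) and at 469.8 and 212.8 (-1.14), so this gene has no settled direction.

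The eIF4E-binding proteins keep eIF4E from the scaffold unless mTORC1 phosphorylates them. Eif4ebp1, which is also a target of ATF4, was at 10532 and 10848 (log2 difference 0.04), and its other 2 probe sets gave -0.22 and -0.04. Eif4ebp2 was at 1201 and 1406 (0.23, probe-set spread 0.29), and its 4 probe sets past the filter ran from -0.40 to 0.92. Eif4enif1, which carries eIF4E into the nucleus, was at 923.0 and 887.5 (-0.06). The median of the 3 genes was 0.04 (-0.0094 with each array's median subtracted), and no gene of the group differed by more than its probe-set spread in its brightest probe set.

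Eif5a, whose protein bears the amino acid hypusine and helps ribosomes past difficult stretches, was at 32746 and 34500 (log2 difference 0.08), and its second probe set was lower (-0.10). Eif6, which keeps the large subunit from joining too early, was at 1778 and 1796 (0.01), and its second probe set was at 208.8 and 435.8 (1.06). The dimmer probe set of Eif6 thus gave a larger difference than its brightest. Eif5a2, the tissue-restricted relative of Eif5a, lay under the filter, with 50.2 and 166.6 in one probe set and 160.7 and 37.96 in the other. Eif4a3, a helicase of the exon junction complex, also lay under the filter, at 24.3 and 72.1 in its own probe set. The opposite signs for Eif5a2 are at intensities where background can set the value.

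**Figure D3:**
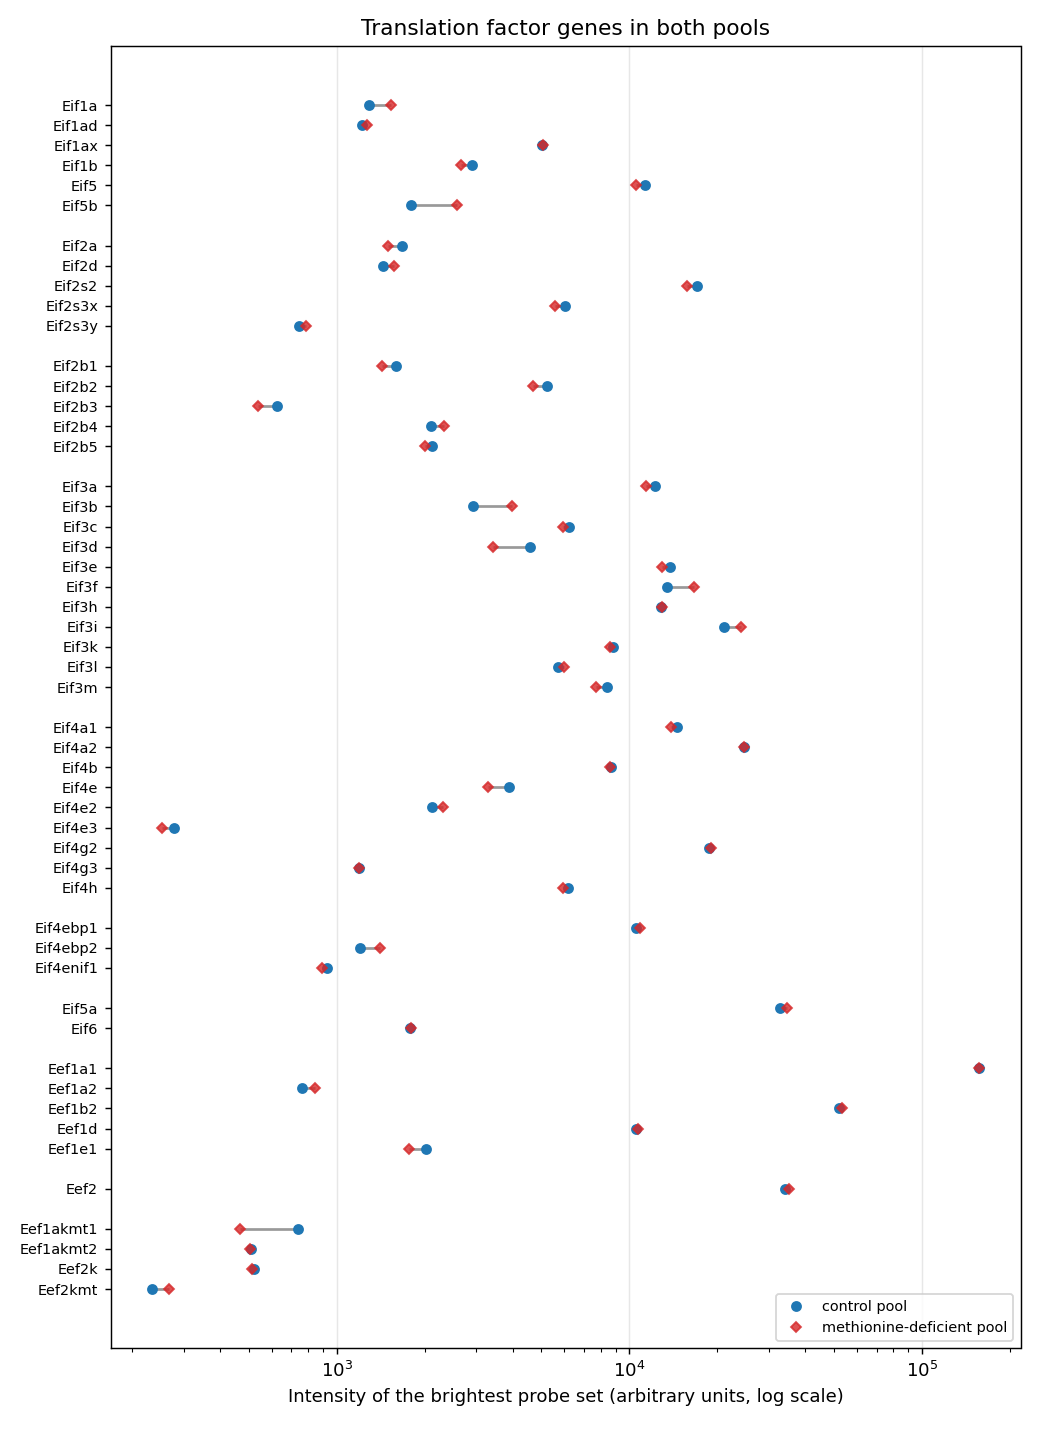
Intensity of the brightest probe set of each of the 51 genes past the filter (horizontal, log scale) in the control pool (blue circles) and the methionine-deficient pool (red diamonds), grouped by complex (vertical). Levels of different genes are not comparable, since each probe set binds with its own strength. The pairs lie close together, and the widest gaps are those of Eef1akmt1, Eif5b, Eif3b and Eif3d.

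Elongation factor genes had close values, with a median absolute log2 difference of 0.03 for the 5 eEF1 genes, beside 0.13 for all genes of the brightest bin, which holds 4 of the 5. Eef1a1, which carries aminoacyl-tRNA to the ribosome, was at 157031 in controls and 156857 in the methionine-deficient pool (log2 difference -0.0016), a range in which saturation can hide a difference. The exchange factor genes Eef1b2 and Eef1d were at 52177 and 53443 (0.03) and at 10544 and 10713 (0.02). Eef2, the translocase, was at 33959 and 35107 (0.05, and -0.0040 with each array's median subtracted). The log2 differences of these 4 genes lay between -0.0016 and 0.05, beside a probe-set spread of 0.18. Eef1a2, the form of eEF1A known from muscle and neurons, was at 761.0 and 845.1 (0.15, probe-set spread 0.29). Eef1e1, a scaffold protein of the tRNA synthetase complex that was counted here with the eEF1 genes, was at 2022 and 1762 (-0.20, probe-set spread 0.18). It was the farthest from 0 of the 5 genes so grouped. Their median, which includes Eef1e1, was 0.02 (-0.03 with each array's median subtracted and -0.01 with quantile scaling). Dim probe sets under the filter gave larger differences, with Eef2 at 4.85 and 26.7 and Eef1d at 18.9 and 131.8.

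Among enzymes that modify elongation factors was the 1 gene past 1.5-fold. Eef1akmt1, a lysine methyltransferase of eEF1A, was at 736.5 and 466.7 in its brightest probe set, 1.58-fold lower (log2 difference -0.66, probe-set spread 0.42). Its other probe sets were at 611.1 and 508.2 (-0.27), at 394.8 and 635.2 (0.68) and at 282.0 and 343.4 (0.28). Since 2 probe sets were lower and 2 higher, the direction of this gene is not settled, and its mean over probe sets was 0.01. The next genes by size, Eif5b at 0.52 and Eif3b at 0.45, lay just short of 1.5-fold, which is 0.58 on the log2 scale.

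The other modifying enzymes were close. Eef2k, the kinase that halts eEF2 when nutrients or energy are short, was at 519.5 and 512.9 (log2 difference -0.02), with its dimmest probe set at 218.6 and 358.4 (0.71). Eef1akmt2 was at 510.7 and 503.3 and Eef2kmt at 233.9 and 267.0, each from 1 probe set. Eef1aknmt, which methylates eEF1A at more than 1 site, lay under the filter with 3 probe sets, all higher (1.35, 0.72 and 1.84), from control intensities between 45.0 and 74.3. These low control values lie where the background correction can set the difference.

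Agreement between probe sets of a gene was about as frequent as among all genes. Of 32 factor genes read past the filter by at least 2 probe sets, 6 had all of them higher, 6 had all of them lower and 20 were mixed, so 37.5% went in 1 direction. Over all 4819 such genes 39.6% did. With at least 3 probe sets, it was 5 of 20 factor genes (25%) and 21.2% of 1901 genes. The 5 were Eif1ax and Eif5b on the higher side and Eif2s3x, Eif3c and Eif4e on the lower side, chosen after their values were seen. With each array's median subtracted the brightest probe set of Eif1ax is lower, and the other 4 genes keep their side in all probe sets past the filter. Of the 8 genes whose probe sets were mixed with at least 1 past 1.5-fold, Eef2k, Eif2a, Eif2b2, Eif2d, Eif2s2, Eif4e2 and Eif4ebp2 stayed within 1.5-fold in their brightest probe set, and Eef1akmt1 did not. Eif2d is mixed only through a probe set that is under the filter in the methionine-deficient pool.

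Among the eIF2 kinases and phosphatases, Eif2ak1, the heme-regulated eIF2 kinase, was the farthest above 0. It was at 705.0 and 1266, 1.79-fold higher (log2 difference 0.84, probe-set spread 0.29), and all 3 of its probe sets were higher, down to 0.17. The amino acid sensor kinase Eif2ak4, known as GCN2, was at 282.0 and 249.6 (-0.18, probe-set spread 0.59), and its second probe set gave 0.21. The endoplasmic reticulum kinase Eif2ak3 was at 7077 and 8385 (0.24), with its other 2 probe sets lower, and the antiviral kinase Eif2ak2 was at 315.0 and 312.9, with its other 2 probe sets higher, up to 1.40. Gcn1, which activates GCN2 on ribosomes, was at 717.4 and 339.3 (-1.08, probe-set spread 0.42), but at 0.58 in its second probe set. The 13 genes of eIF2 kinases and phosphatases had a median of -0.03, with 5 higher and 8 lower. In each direction 1 of the 13 was past 1.5-fold, beside 10.4% (higher) and 9.00% (lower) of all genes, which is near that background.

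The lists of the ATF4 pathway and of mTORC1 and MNK signalling held genes on both sides. Atf4, the factor made when eIF2 is phosphorylated, was at 10457 and 9643 (log2 difference -0.12), and its second probe set gave 0.11. The 12 genes of its list had a median of -0.08, with 4 higher and 8 lower. Sesn2 was the farthest from 0 at 337.1 and 163.8 (-1.04, probe-set spread 0.79). It was the only gene of the 12 past 1.5-fold, beside 9.00% of all genes past the filter that were lower and 10.4% that were higher. Mtor, the kinase that controls eIF4E-binding proteins, was at 1111 and 1652, 1.49-fold higher (0.57, probe-set spread 0.29), with both probe sets higher. The 20 genes of mTORC1 and MNK signalling had a median of 0.04 (-0.01 with each array's median subtracted), with 12 higher and 8 lower. None of the 20 was past 1.5-fold in either direction, beside the same 10.4% and 9.00%, shares that are smaller among bright genes. Pdcd4, an inhibitor of eIF4A, was at 19826 and 19760.

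The next 4 lists hold 6 or 7 genes past the filter each. Pabpc1, the main poly(A)-binding protein, was at 26706 and 25802 (log2 difference -0.05), and 5 of 6 genes of its list were lower with a median of -0.05. In that list Pabpc4 was the farthest from 0, at 19280 and 21394 (0.15). Of 7 termination and recycling genes 5 were lower with a median of -0.11, and Mcts2, whose near copy Mcts1 may share its signal, was at 261.5 and 168.3 (-0.63, probe-set spread 0.79). Of 7 measured genes for the enzymes that make hypusine and diphthamide, the modified residues of eIF5A and eEF2, 6 were lower with a median of -0.34. Dohh, which completes hypusine, was at 1525 and 1126 (-0.44, probe-set spread 0.29, 1 probe set). Dhps, which starts it, was at 466.2 and 592.8 (0.35, probe-set spread 0.42), but at -0.25 in its second probe set. The brightest probe sets of Dph2, Dph3, Dph5 and Dph6 were lower by less than their probe-set spread. Dnajc24, a diphthamide gene, was at 334.9 and 125.8 (-1.41, probe-set spread 0.79), and passed the filter on the mean of both pools through the control value alone. Over the 6 genes of the list past the filter in both pools, an alternative chosen after seeing the data, 5 were lower with a median of -0.32. Of 6 mitochondrial factor genes 4 were lower with a median of -0.19, and Mtif2 was at 1041 and 798.9 (-0.38). Over all genes past the filter 5924 of 11848 were lower, and no list was tested against them.

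Gtpbp2, a ribosome rescue gene in the list of other scanning and decoding cofactors, was the bright exception. It was at 18208 in controls and 9052 in the methionine-deficient pool, 2.01-fold lower (log2 difference -1.01, probe-set spread 0.18). However, 4 probe sets read Gtpbp2 past the filter, and they ran from -1.01 to 0.95, 2 higher and 2 lower. The 9 genes of that list had 2 past 1.5-fold higher and 3 lower, beside 10.4% and 9.00% of all genes past the filter.

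**Figure D4:**
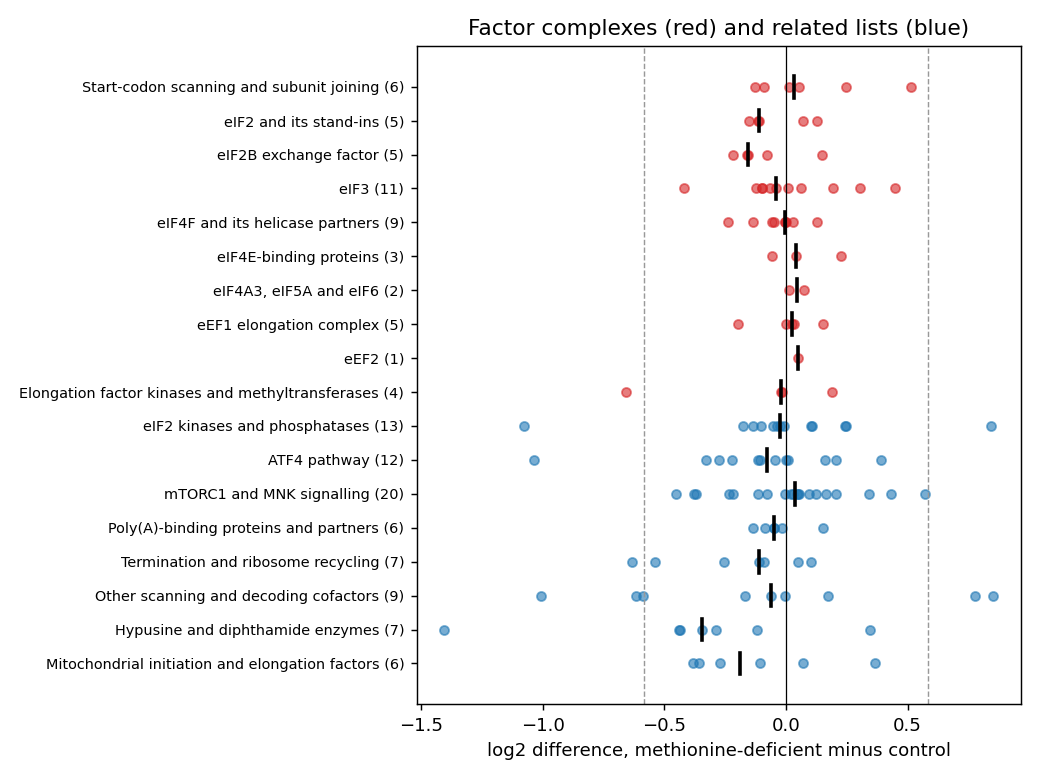
Log2 difference, methionine-deficient minus control, of each gene past the filter (horizontal), for the factor complexes (red) and the related lists (blue), with the number of genes in brackets. Black bars are medians, and dashed lines mark 1.5-fold. Medians of the complexes lie between -0.16 and 0.05, and that of the hypusine and diphthamide enzymes at -0.34 (-0.32 without Dnajc24, which is under the filter in the methionine-deficient pool). In that list only Dohh and Dnajc24 differed by more than their probe-set spread.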

How the data were processed

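Total RNA of the pancreas was pooled per group and labelled as biotin-cRNA for Affymetrix arrays with a 3' IVT kit, per the labels' protocols. The authors deposited 1 linear intensity for each probe set. Which program, background correction and scaling they used is not given in the sources used here. Both arrays share a mean of 500.003 after trimming 2% at each end, so a change in total RNA would not be seen. Precision is limited by the number of arrays.

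Symbols are those of the 2016 platform annotation, brought up to date by gene identifier. Of the probe sets, 34945 had 1 symbol, 932 several and 9160 none, and 64 were array controls. Intensities were taken to log2(value + 1), on which scale fold changes of dim genes are slightly understated. The brightest probe set by mean level stood for its gene, which was kept where this level was at or above the median of the arrays. The spread is the robust SD of differences between probe sets of 1 gene, adjacent in level within 1 of 5 bins, over the square root of 2 (the bins hold only probe sets past the filter). Counting was tried on simulated large changes with little noise, at 2-fold only. That trial did not cover the 1.5-fold counts or the probe-set spread of these data. Computations used Python 3.11.15 with numpy 2.4.6, pandas 2.3.3, statsmodels 0.14.6 and matplotlib 3.10.9.

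Members and lists were chosen with earlier results of these data known. Named were the brightest and the farthest member of each complex, members past 1.5-fold, members with opposed probe sets, the farthest gene of each related list and a fixed set of regulators. Other members were described from the same tables. Alternatives were 3 scalings, another pseudocount, 2 level filters, the mean over probe sets, only the other probe sets, and the set without probes of type _s_at or _x_at, which can bind several transcripts. Start regions and gene starts came from RefSeq (GRCm38.p6).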

Additional observations from a re-analysis of the deposited data

How the results depend on the processing

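The 3 scalings, the larger pseudocount and the stricter level filter left the counts of factor genes at 1.5-fold and 2-fold as reported. With the scalings and the pseudocount, 8.47% to 10.5% of all genes passed 1.5-fold in a given direction. With the stricter filter, 0 of 49 factor genes were 1.5-fold higher and 1 was lower, beside only 3.95% and 3.97% of all genes. At 2-fold it was 0 in each direction, beside 0.75% and 0.55%. No paired analysis was possible because each group is 1 pool on 1 array, and no replicate could be left out. Without a level filter 3 genes were at least 1.5-fold and 3 at least 2-fold higher, which were the 3 dim genes Eef1aknmt, Eif4a3 and Eif5a2 of 54, beside 20.0% and 12.8% of all genes, and the group with eIF5A had a median of 0.80. With the mean over probe sets, which lets dim probe sets in, 2 were 1.5-fold and 2-fold higher (Eef1d and Eef2) and 2 were 1.5-fold lower (Eif3d and Eif4h) of 50 genes, beside 12.4%, 4.81% and 9.99% of all genes. Without probe sets that can bind several transcripts 1 of 48 was 1.5-fold higher (Eif2b2), beside 10.6% of all genes. Over the other probe sets of the 32 genes that have them, 3 were 1.5-fold higher (Eif1ad, Eif2a and Eif6), of which 1 was 2-fold higher (Eif6), and 1 was 2-fold lower (Eif3d), beside 10.7%, 3.78% and 3.42% of all genes. Eef1akmt1 turned to 0.011 with the mean over probe sets and to 0.23 over its other probe sets. Unless stated, the cause of a shift was not tested.

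The median of all factor genes was -0.055 with median centring and 0.040 over the other probe sets. With median centring, medians were -0.16 for eIF2, -0.21 for eIF2B, -0.094 for eIF3, -0.056 for eIF4F and -0.029 for eEF1. Quantile scaling gave -0.076 for eIF2 and -0.012 for eEF1, and loess gave 0.040 for eEF1. The mean over probe sets gave 0.20 for scanning and joining, -0.054 for eIF2, 0.013 for eIF3, -0.032 for eIF4F, -0.057 for the eIF4E-binding proteins, 0.26 for eIF5A with eIF6, 1.15 for eEF2, where a dim probe set enters, and 0.10 for the modifying enzymes. Without probe sets that can bind several transcripts, eIF2B was at -0.077, eIF4F at -0.032 and the eIF4E-binding proteins at -0.057. Over the other probe sets, medians were 0.27 for scanning and joining, -0.0020 for eIF2, 0.25 for eIF2B, 0.48 for eIF5A with eIF6, 0.078 for eEF1 and 0.26 for the modifying enzymes. The remaining 63 of 89 complex medians moved by less than the error of the median over members (for groups under 3 genes, the probe-set spread). Arrays of single pools show no difference smaller than the probe noise, and that noise is lowest for bright genes.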

Other observations

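Probe sets that the annotation pairs with several genes were left out of all counts, and some of them read translation factors. The 3 probe sets shared by Eif3j1 and Eif3j2, the genes of a loosely bound eIF3 subunit, had log2 differences (methionine-deficient minus control) of -0.02, 0.0089 and 0.01, with intensities of 6623 and 6688 in the brightest. The bright probe set that Eef1g, the structural subunit of eEF1, shares with Gm29753 was at 31593 in controls and 32151 in the methionine-deficient pool. The bright probe set of Eif4a3 shared with Gm5576 was at 1547 and 1874 (0.28), while the dim probe set of Eif4a3 alone was at 24.3 and 72.1. A probe set of Eif4ebp3, an eIF4E-binding protein, shared with Ankhd1 was at 816.1 and 1056 (0.37). These shared probe sets past the level filter were within 1.5-fold, and the genes behind each signal cannot be told apart.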
